A study of Mus musculus with 9 samples.

Results

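The choroid plexus genes described here are 10 markers of the choroid plexus epithelium, chosen by gene symbol with no threshold on their values: Ttr, Enpp2 and F5, which encode secreted proteins, Kl, Folr1 and Prlr, which encode receptors or a co-receptor, Aqp1, Slc4a5 and Clic6, which encode transport and channel proteins, and the transcription factor gene Otx2. These genes, and the lists read beside them, were chosen with earlier results of these data known. All 10 had a row among the 21899 genes of the count table, and all 10 passed the filter on low counts that 14837 genes passed. The choroid plexus is a folded tissue that hangs in the brain ventricles, where a single layer of epithelial cells around leaky capillaries makes cerebrospinal fluid and forms the barrier between blood and that fluid. Its cells move water, sodium, chloride and bicarbonate toward the ventricle, carry folate and hormones across, and secrete transport proteins such as transthyretin. The plexus of the third ventricle lies close to the PVT, the paraventricular nucleus of the thalamus, which lies at the midline under that ventricle's roof.

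In the deposited table (GRCm39) the genes lie as follows: Ttr at chr18:20798337-20807378, Enpp2 at chr15:54702297-54816288, F5 at chr1:163979407-164047846, Kl at chr5:150876072-150917282, Folr1 at chr7:101507538-101519995, Prlr at chr15:10177324-10349266, Aqp1 at chr6:55313417-55325540, Slc4a5 at chr6:83196810-83281927, Clic6 at chr16:92282624-92338131 and Otx2 at chr14:48895134-48911276. Folr1, Enpp2 and Otx2 lie on the minus strand.

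RNA was sequenced from PVT tissue of wild-type mice in 3 groups of 3 libraries: phosphate-buffered saline (PBS) with collection at day 1, lipopolysaccharide (LPS) at day 1, and LPS at day 7. LPS is a bacterial outer membrane component that activates Toll-like receptor 4, and both agents were injected into the peritoneal cavity. The labels name no strain, age or sex. The tissue was whole, so that fewer cells of a type and less RNA per cell cannot be told apart. No PBS group of day 7 is among the samples used here, and where LPS at day 7 is set against PBS, time and treatment cannot be told apart. The labels do not say whether the 3 libraries of a group came from separate animals, and the p-values rest on the spread among libraries, which may be technical.

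The libraries held 13211422 to 17210526 counts, and libraries of the same group differed beyond sampling noise (2.01 to 3.62 for chi-square over its degrees of freedom). They also differed between groups in ways that the labels do not name. The summed counts of 4 Y-linked genes were 1, 0 and 0 in PBS, 1057 to 1368 in LPS at day 1 and 1530 to 1662 in LPS at day 7. A list of 7 cerebellar genes summed to 172 to 184 CPM in PBS and 143 to 146 CPM in LPS at day 1, but to 1330 to 1356 CPM in LPS at day 7 (CPM are counts scaled to a common library size with TMM factors). A list of 8 Hox genes of the hindbrain had 1 count over the 3 PBS libraries together, 8 in LPS at day 1 and 427 in LPS at day 7. A striatal list of 6 genes summed to 1127 to 1170, 751 to 766 and 474 to 485 CPM. Thalamic markers were present in all libraries, with sums over 8 genes of 1010 to 1016, 915 to 932 and 858 to 883 CPM. Of these 8 genes 6 fell and 2 rose at day 1 against PBS (median log2 fold change -0.41), where 24.2% of all genes fell. At day 7 against PBS 6 fell (median -0.37), where 18.9% of all genes fell, 1 did not pass and 1, Calb2, rose (0.72 ± 0.05). The part of these differences in the results below was not tested. In both comparisons with PBS, the difference in Y-linked transcripts and treatment cannot be told apart. In both comparisons that use LPS at day 7, the differences in cerebellar and Hox transcripts and day cannot be told apart.

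Start-site sequences are shown for the 3 genes with the largest falls at day 7 that have an entry in the RefSeq promoter table (GRCm38.p6, which differs from the GRCm39 build of the count table). Each line holds the 250 bases before the annotated start, on the plus strand, 5′ to 3′, and capitals mark GC boxes, the letters GGGCGG or their reverse complement CCGCCC. They are F5 at chr1:164151585-164151834, Kl at chr5:150952357-150952606 and Aqp1 at chr6:55336049-55336298.
F5: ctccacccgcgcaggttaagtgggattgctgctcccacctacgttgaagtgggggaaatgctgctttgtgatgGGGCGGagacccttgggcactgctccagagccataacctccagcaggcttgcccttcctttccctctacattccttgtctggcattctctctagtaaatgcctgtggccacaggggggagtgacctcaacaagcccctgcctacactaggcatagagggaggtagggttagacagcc
Kl: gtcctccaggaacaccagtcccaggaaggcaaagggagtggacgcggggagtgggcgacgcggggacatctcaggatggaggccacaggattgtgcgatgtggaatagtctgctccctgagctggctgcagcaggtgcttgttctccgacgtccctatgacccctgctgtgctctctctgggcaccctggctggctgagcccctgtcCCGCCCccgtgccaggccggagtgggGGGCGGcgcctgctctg
Aqp1: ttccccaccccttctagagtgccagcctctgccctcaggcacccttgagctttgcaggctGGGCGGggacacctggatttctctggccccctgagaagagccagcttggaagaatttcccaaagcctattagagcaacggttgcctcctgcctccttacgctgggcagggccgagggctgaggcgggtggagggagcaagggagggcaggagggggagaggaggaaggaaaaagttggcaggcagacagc
None of these 3 windows overlaps an annotated exon in GENCODE M21. The F5 window lies within an intron of Gm16548, and the other two lie outside annotated transcripts.

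The table held 11 start sites of 6 members (F5, Kl, Aqp1, Slc4a5, Otx2 and Prlr). In the 250 bases before these starts, the core letters bound by OTX proteins, TAATCC or GGATTA, occurred at 1 of 11 starts, an Otx2 start, against 6.25% of all 32851 starts in the table. A forkhead core, GTAAACA or TGTTTAC, occurred at 1 start, of Prlr, against 3.17% of all. GC boxes, chosen for display with the sequences in view, occurred at 4 of 11 starts against 32.7% of all. The share of G and C was 57.2%, 66.8% and 62.0% in the 3 windows printed, and 32.8% to 62.8% in the other 8 windows of the members, of which 6 lie below the median of the table (52.4%). The Otx2 window with the OTX match lies wholly within an annotated Otx2 exon in GENCODE M21. Other windows of Otx2 and that of Slc4a5 overlap exons in part. The Otx2 windows at chr14:48667645-48667894 and chr14:48667509-48667758 overlap each other. These matches are a description of letters in a window.

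All 10 genes were detected in every library, with 22 to 9285 counts per gene and library. Per gene length, transthyretin mRNA was the most abundant in each group: Ttr had 326 ± 29.9, 324 ± 5.7 and 273 ± 7.16 FPKM (SD, n = 3) in PBS, LPS at day 1 and LPS at day 7. Enpp2 followed with 95.9 ± 4.44, 98.4 ± 2.44 and 68.0 ± 1.95 FPKM, then Clic6 with 7.81 ± 0.278, 7.68 ± 0.247 and 4.26 ± 0.346 FPKM and Kl with 4.08 ± 0.147, 4.55 ± 0.305 and 1.72 ± 0.116 FPKM. These first 4 places were the same in the 3 groups, and in PBS and LPS at day 1 the libraries of each of the 4 genes lay above those of the next gene. At day 7 Kl overlapped Otx2. The other 6 genes lay between 0.444 and 2.27 FPKM as group means, and in PBS each of them overlapped its neighbour in the order. F5 moved from the sixth place in PBS, at 1.67 ± 0.169 FPKM, to the last at day 7, at 0.444 ± 0.0682 FPKM. Otx2 was ninth in PBS, at 1.31 ± 0.0996 FPKM, and held the fifth place at day 7, at 1.36 ± 0.311 FPKM. Together the 10 genes took 0.102% to 0.113% of the counts of a PBS library and 0.0762% to 0.0800% of an LPS library at day 7.

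**Figure D1:**
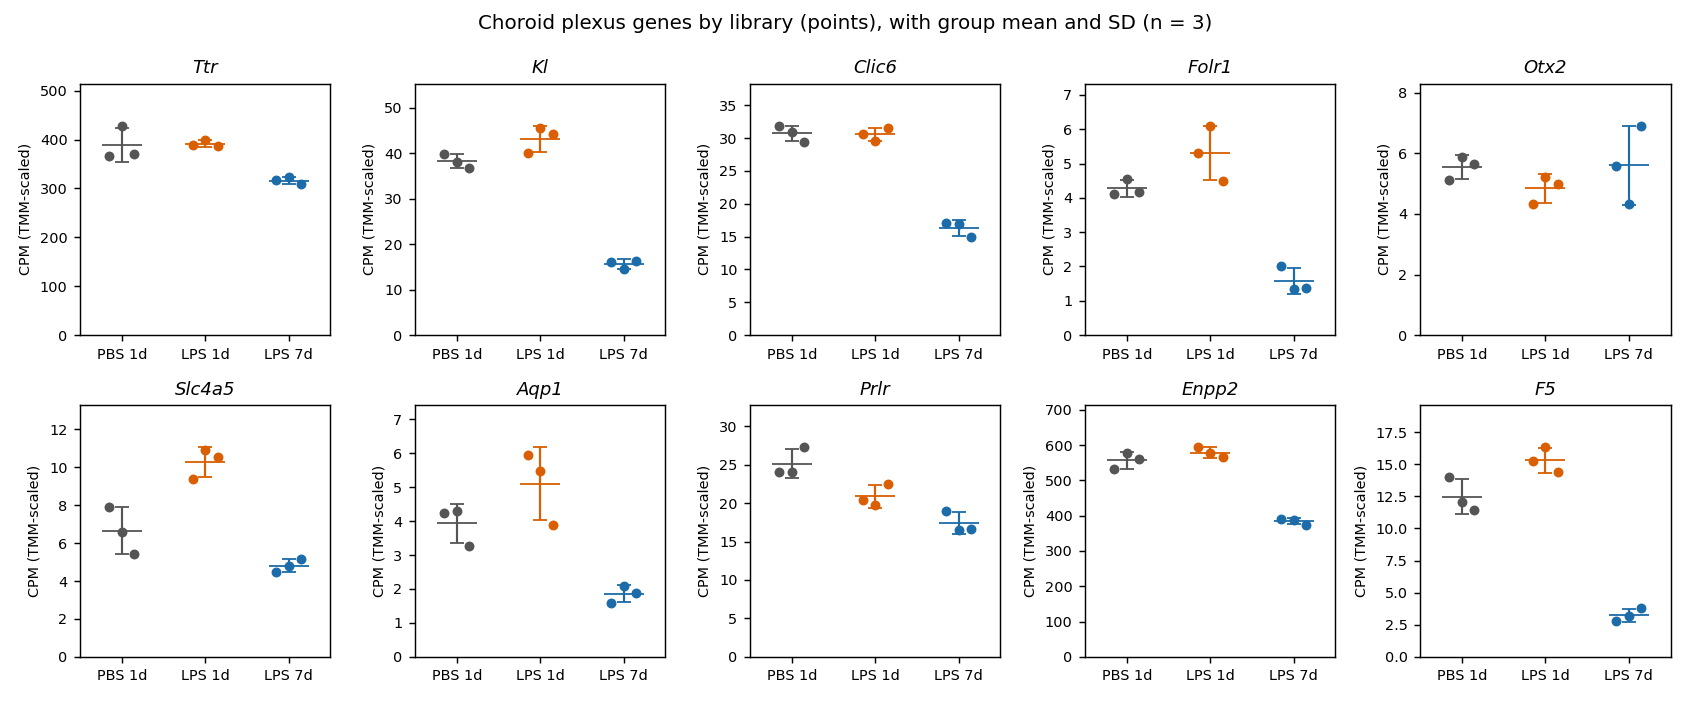
CPM of the 10 genes (vertical axes, from 0) in each library (points) of the 3 groups, with the group mean and SD (horizontal and vertical bars, n = 3). In 9 panels the 3 LPS libraries at day 7 lie below all PBS libraries; in the Otx2 panel, with 4.32 to 6.92 CPM at day 7, they overlap.

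At day 1, LPS was set against PBS collected on the same day. As above, these groups also differed in Y-linked transcripts, and that difference and treatment cannot be told apart. Of the 10 genes 3 rose (Slc4a5, F5 and Kl), 1 fell (Prlr) and 6 did not pass the test, while 49.1% of all genes tested changed, 24.9% upward and 24.2% downward. The share of members that changed is not above that background. In 4 members the groups did not overlap, 3 with LPS higher and 1 with LPS lower, as in 54.5% of all genes (27.4% higher and 27.1% lower). Their median log2 fold change was 0.12, against -0.01 over all genes tested. Only the Slc4a5 call passed in all the alternatives run: DESeq2 called 2 members, Slc4a5 and Prlr, and without PBS replicate 3 or LPS day 1 replicate 2 the count was 1.

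Slc4a5 encodes a sodium bicarbonate cotransporter that sits on the ventricle side of the epithelium. Its CPM were 7.93, 6.58 and 5.45 in PBS and 9.40, 10.9 and 10.5 in LPS at day 1. All LPS libraries lay above all PBS libraries, and they differed by a log2 fold change of 0.62 ± 0.14 (SE; edgeR adjusted p = 0.000296). F5 encodes coagulation factor V, the cofactor with which factor Xa makes thrombin. It had 14.0, 12.0 and 11.4 CPM in PBS and 15.3, 16.3 and 14.4 CPM in LPS at day 1. The groups did not overlap, but the highest PBS and the lowest LPS library lay close together. The log2 fold change was 0.29 ± 0.12 (edgeR adjusted p = 0.034). It no longer passed with DESeq2 (adjusted p = 0.0943) or without PBS replicate 2 or 3 or LPS day 1 replicate 1 or 2 (adjusted p = 0.0642 to 0.141).

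Kl encodes klotho, the co-receptor through which fibroblast growth factor 23 acts, which is also shed into cerebrospinal fluid. The 3 PBS libraries had 39.9, 38.1 and 36.9 CPM, and those of LPS at day 1 had 40.0, 45.5 and 44.2 CPM. The lowest LPS library barely exceeded the highest PBS library. The log2 fold change of 0.18 ± 0.07 (edgeR adjusted p = 0.0372) was lost with 3 other methods, upper-quartile factors (0.068), library totals (0.0612) and DESeq2 (0.0854). It was also lost without PBS replicate 2 or 3 or LPS day 1 replicate 2 or 3 (adjusted p = 0.0851 to 0.168). Prlr encodes the prolactin receptor, which hypothalamic neurons also express. It had 24.0, 24.1 and 27.3 CPM in PBS and 20.3, 19.7 and 22.5 CPM in LPS at day 1. All LPS libraries were lower, with a log2 fold change of -0.26 ± 0.09 (edgeR adjusted p = 0.012). Without PBS replicate 3 or LPS day 1 replicate 2 it did not pass (adjusted p = 0.1 and 0.0671).

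The remaining members overlapped between PBS and LPS at day 1. Ttr, the carrier of thyroxine and of retinol-binding protein, had 367, 429 and 370 CPM in PBS and 389, 399 and 386 CPM after LPS. Its log2 fold change was 0.01, with a 95% interval of -0.07 to 0.09, and its sign flipped with upper-quartile factors and with library totals (-0.011 and -0.0074). For Enpp2, whose product autotaxin makes lysophosphatidic acid, the interval was -0.01 to 0.13. For Clic6, a member of the chloride intracellular channel family, it was -0.16 to 0.15. The less abundant genes were measured less closely, with intervals of -0.06 to 0.69 for Folr1, the folate receptor of the plexus, -0.03 to 0.75 for the water channel gene Aqp1 and -0.53 to 0.16 for Otx2. Without LPS day 1 replicate 3, Aqp1 passed the test (log2 fold change 0.53, edgeR adjusted p = 0.0398).

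The second comparison sets LPS at day 7 against PBS. Of the choroid plexus genes 9, all except Otx2, fell, by 0.30 to 1.95 on the log2 scale, and none rose. Over all genes tested 35.6% changed, 18.9% downward and 16.8% upward. With library totals in place of TMM factors, 57.8% of the genes that changed rose, against 47.1% here, and the same 9 members fell. In 9 members the LPS libraries lay below all PBS libraries, as in 22.7% of all genes tested (44.2% did not overlap in either direction). The median over the 10 was -0.72, against 0.00 over all genes, and 4 members, F5, Folr1, Kl and Aqp1, were at least 2-fold lower with an adjusted p under 0.05, as were 1.21% of all genes. As above, these libraries also differ from PBS in cerebellar, striatal and Y-linked transcripts, whose part was not tested.

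F5 had the largest fall of the 10. Its day 7 libraries had 2.76, 3.15 and 3.78 CPM, far below the 11.4 to 14.0 CPM of PBS, and the log2 fold change was -1.95 ± 0.15 (edgeR adjusted p = 2.49e-16). Folr1 had 4.11, 4.55 and 4.16 CPM in PBS and 2.02, 1.36 and 1.36 CPM at day 7. No day 7 library reached the lowest PBS library, and the log2 fold change was -1.43 ± 0.23 (edgeR adjusted p = 9.58e-07). Kl stood at 16.2, 14.5 and 16.4 CPM at day 7, with a log2 fold change of -1.29 ± 0.08 (edgeR adjusted p = 3.38e-19). All 3 values were far below the lowest PBS value of 36.9 CPM. Aqp1, through which water crosses the epithelium, had 4.23, 4.30 and 3.27 CPM in PBS and 1.59, 2.10 and 1.89 CPM at day 7. Here too the groups were apart, with a log2 fold change of -1.08 ± 0.23 (edgeR adjusted p = 0.000141).

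Clic6 fell as clearly, from 31.8, 30.9 and 29.4 CPM in PBS to 17.1, 16.96 and 14.9 CPM (log2 fold change -0.91 ± 0.08, edgeR adjusted p = 3.06e-13). Smaller falls were measured for the other 4 genes. Enpp2 went from 531, 577 and 562 CPM to 390, 388 and 375 CPM (-0.53 ± 0.04, edgeR adjusted p = 7.99e-18), with a gap between the groups several times their spread. Oligodendrocytes also express Enpp2. Of 7 oligodendrocyte genes 6 rose at day 7 against PBS and 1 did not pass (median log2 fold change 0.30), where 16.8% of all genes rose, and the part of oligodendrocyte RNA in the Enpp2 values was not tested. Prlr stood at 19.0, 16.5 and 16.7 CPM at day 7, below every PBS library (-0.53 ± 0.09, edgeR adjusted p = 3.35e-06).

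Slc4a5 stood at 4.47, 4.81 and 5.14 CPM at day 7. Its highest library was just under the lowest PBS library, and the log2 fold change of -0.47 ± 0.16 (edgeR adjusted p = 0.0148) was not kept without PBS replicate 1 (-0.32, adjusted p = 0.168) or LPS day 7 replicate 1 (-0.42, adjusted p = 0.0559). Ttr had 317, 323 and 309 CPM at day 7, and all 3 values were below the PBS values. Its log2 fold change of -0.30 ± 0.04 (edgeR adjusted p = 5.01e-08) was the smallest among the 9. Otx2, a homeobox factor needed to form and maintain the plexus, had 5.11, 5.88 and 5.65 CPM in PBS and 5.57, 4.32 and 6.92 CPM at day 7. The day 7 libraries spread to both sides of PBS, and the log2 fold change of 0.02 had a 95% interval of -0.31 to 0.35. Its sign turned without PBS replicate 1 (-0.04) or LPS day 7 replicate 3 (-0.16). Outside the plexus, Otx2 is known from pineal cells and from parts of the midbrain and cerebellum.

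**Figure D2:**
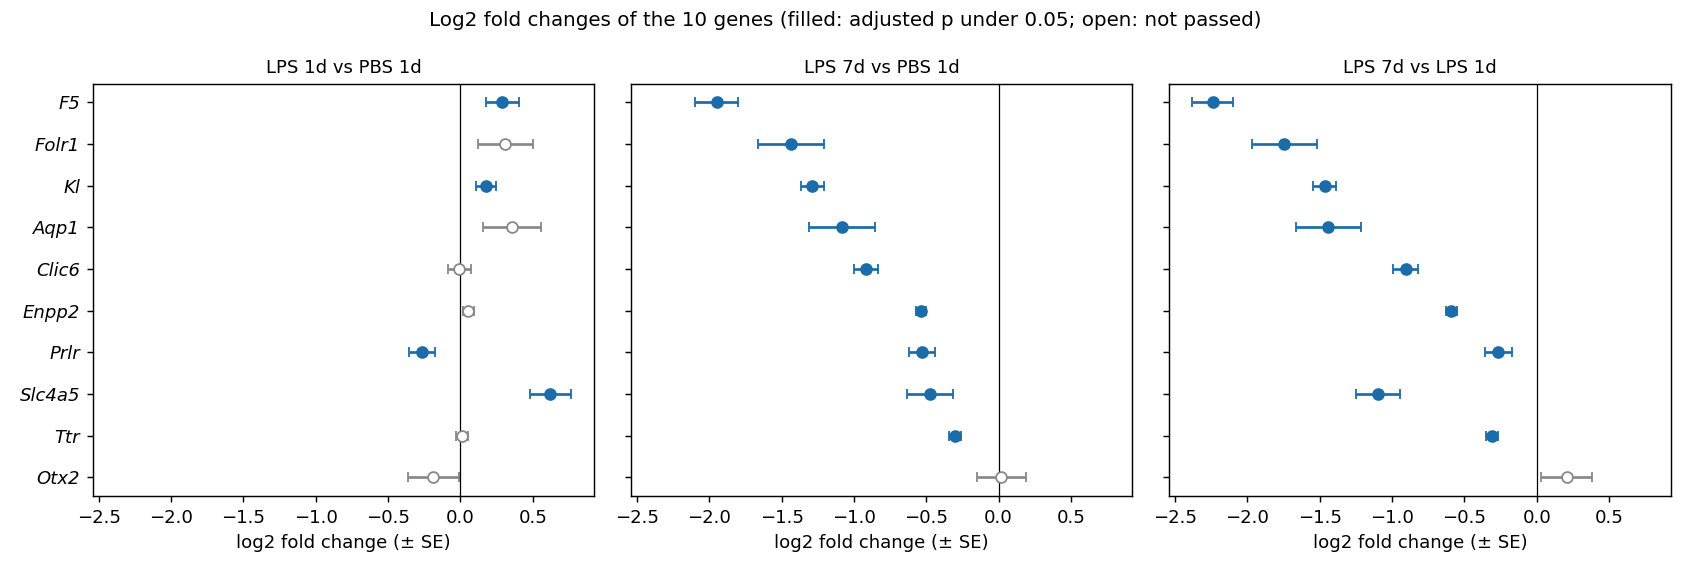
Log2 fold change (horizontal axis, ± SE) of the 10 genes in the 3 comparisons; filled points have an edgeR adjusted p under 0.05. At day 7 against PBS the values run from -1.95 for F5 to 0.02 for Otx2, while at day 1 they lie between -0.26 and 0.62.

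In the third comparison, LPS at day 7 against LPS at day 1, the same LPS libraries at day 7 were used again, so it is not independent of the second. The LPS groups of day 1 and day 7 also differed in cerebellar sums (143 to 146 and 1330 to 1356 CPM) and Hox counts (8 and 427). Their striatal sums were 751 to 766 and 474 to 485 CPM. Those differences and day cannot be told apart. Of the members 9 fell and Otx2 did not pass (log2 fold change 0.21, 95% interval -0.14 to 0.55), where 56.6% of all genes changed, 29.1% downward and 27.5% upward. In the 9 that fell the groups did not overlap, as in 60.6% of all genes, 31.1% with day 7 lower. At least 2-fold lower with an adjusted p under 0.05 were 5 members (F5, Folr1, Kl, Aqp1 and Slc4a5) and 4.51% of all genes. With library totals, 56.9% of the genes that changed rose in place of 48.5%. The median of the members was -1.002, against -0.00 over all genes. F5 had the largest fall, by 2.24 ± 0.14, from 14.4 to 16.3 CPM at day 1 to 2.76 to 3.78 CPM at day 7. Folr1 fell by 1.74 ± 0.22, Kl by 1.46 ± 0.08, Aqp1 by 1.44 ± 0.22 and Slc4a5 by 1.10 ± 0.15 (edgeR adjusted p = 1.03e-21 to 2.73e-07 for these and F5). Slc4a5, which rose at day 1 and fell at day 7 against PBS, thus differed between the LPS groups more than either did from PBS. Prlr was the only one of the 9 whose call was lost under an alternative run, with -0.27 ± 0.09 (edgeR adjusted p = 0.0127). Its call was lost with library totals (adjusted p = 0.0517) and without LPS day 1 replicate 3 or LPS day 7 replicate 2 or 3 (adjusted p = 0.0531 to 0.099).

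The genes fell by unequal amounts at day 7, which can be read within each library as counts per 1000 Ttr counts, a ratio that does not depend on library scaling. For F5 this ratio was 38.1, 28.0 and 30.9 in PBS, 39.2, 40.9 and 37.2 in LPS at day 1 and 8.70, 9.74 and 12.3 at day 7. For Kl it was 109, 88.9 and 99.5 in PBS and 51.1, 44.9 and 53.1 at day 7, and for Folr1 it was 11.2, 10.6 and 11.2 against 6.38, 4.20 and 4.41. Relative to Ttr, F5 was thus 3.16 times, Folr1 2.20 times and Kl 1.99 times lower at day 7 than in PBS as group means. Of the 9 ratios 6 (Kl, Clic6, Folr1, Aqp1, Enpp2 and F5) did not overlap between these groups, all of them lower at day 7. Taken to Ttr in the same way, 4.5% of the other genes tested were lower without overlap and 56.7% were higher. The exact permutation test, two-sided, gave p = 0.1 for each, the smallest that 3 against 3 allow, and 27 such tests were made over the 3 comparisons. Slc4a5, Prlr and Otx2 overlapped (ratios of group means 0.884, 0.845 and 1.24, exact permutation p = 0.6, 0.2 and 0.4).

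At day 1 the ratios of Slc4a5 and Folr1 to Ttr were above all PBS libraries. Slc4a5 had 21.6, 15.4 and 14.7 counts per 1000 Ttr counts in PBS and 24.2, 27.3 and 27.2 in LPS at day 1, and Folr1 had 13.7, 15.3 and 11.7 in LPS at day 1. Among the other genes tested, 21.6% had ratios above all PBS libraries and 22.2% had ratios below them, so that these counts of 2 and 1 of 9 are near the background. The ratio of Otx2 was below all PBS libraries at day 1, with 11.1, 13.1 and 12.9 against 13.9, 13.7 and 15.3. The ratios of the other 6 genes overlapped, and all p-values here were again at or above 0.1 by the exact permutation test.

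**Figure D3:**
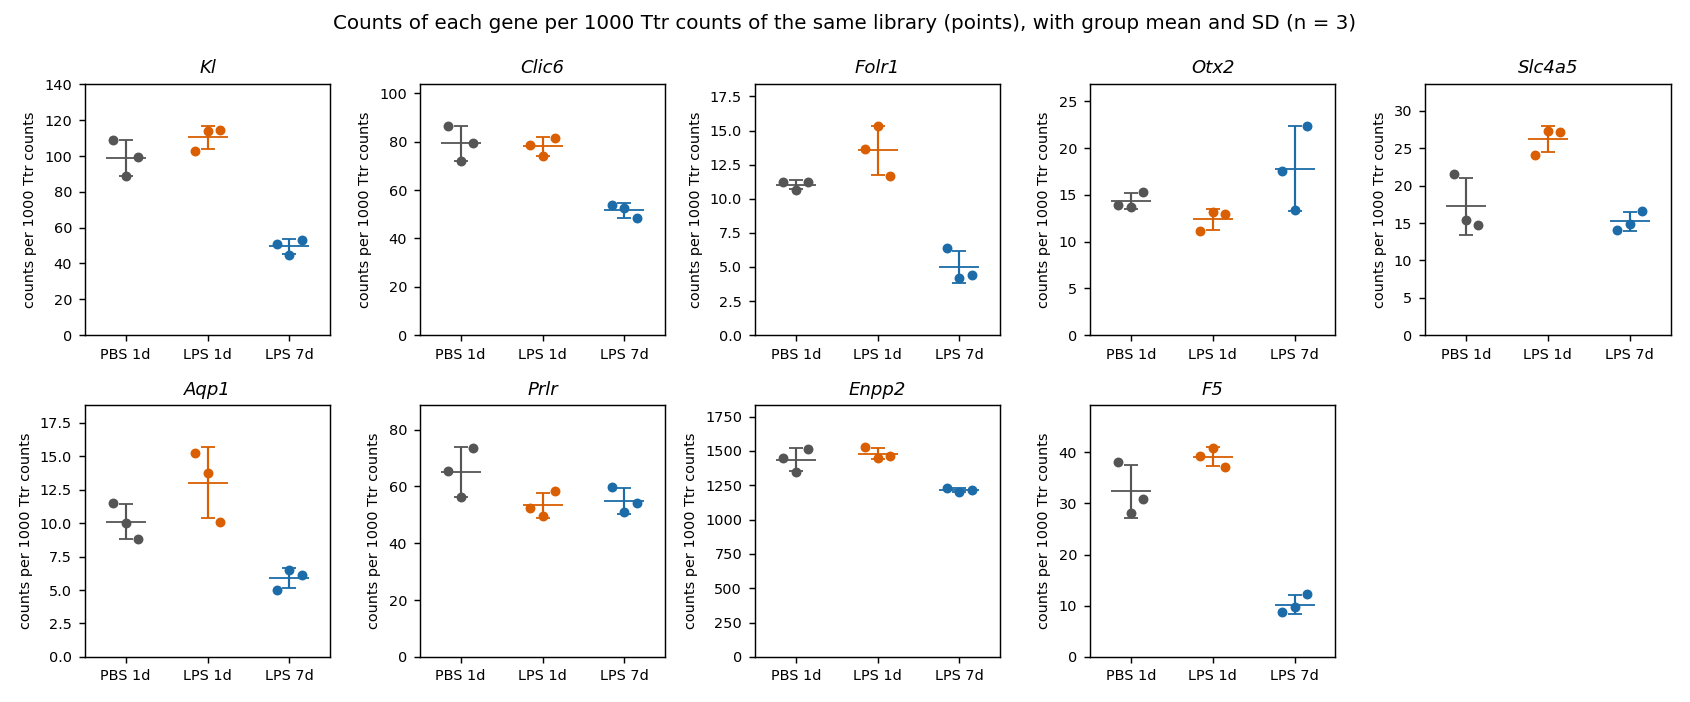
Counts of 9 genes per 1000 Ttr counts of the same library (vertical axes, from 0; points are libraries, bars the group mean and SD, n = 3). For F5, Kl, Folr1, Aqp1, Clic6 and Enpp2 the LPS libraries at day 7 lie below all others, and for Slc4a5 the libraries of LPS at day 1 lie above all others.

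Within groups the 10 genes had coefficients of variation of 1.69% to 24.2% (median 7.25%) over the 3 libraries of a group. No library was highest or lowest for all genes of its group. PBS replicate 2 was highest for 5 genes, among them Ttr, and lowest for none, while PBS replicates 1 and 3 were lowest for 5 each. Ttr and Enpp2 dominate the summed level of the 10 genes, which was 1030 to 1132 CPM in PBS, 1088 to 1115 in LPS at day 1 and 750.3 to 775 at day 7. Without those 2 genes the sums were 124 to 131, 131 to 139 and 63.6 to 68.7 CPM.

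Other genes of the choroid plexus epithelium were read from 5 lists (ion and water transport, solute transport, junctions and keratins, secreted proteins, transcription factors and other markers), of which 49 of 55 genes were tested. At day 7 against PBS 24 of the 49 fell, 7 rose and 18 did not pass, against 18.9% and 16.8% of all genes. Their median log2 fold change was -0.22. At day 1, 13 rose, 7 fell and 29 did not pass (median 0.05), against 24.9% and 24.2% of all genes. At day 7 against day 1 of LPS, 26 fell and 10 rose (median -0.38), against 29.1% and 27.5% of all genes.

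In the list of junctions and keratins, 5 of 9 genes fell at day 7 against PBS, none rose and 4 did not pass (median log2 fold change -0.59). Of all genes 18.9% fell and 16.8% rose in that comparison. Cldn2, which encodes a pore-forming claudin of leaky epithelia, fell by 1.07 ± 0.21 and the keratin genes Krt18 and Krt8 fell by 1.04 ± 0.27 and 1.27 ± 0.45. Spint1, a membrane protease inhibitor of epithelia, fell by 0.91 ± 0.27. At day 1 against PBS, 2 rose and 7 did not pass, where 24.9% of all genes rose. The tight junction gene Cldn1 was at 0.65 ± 0.20 and Perp, a desmosome gene, at 0.65 ± 0.18, although both overlapped between the groups.

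Among transcription factors and other epithelial markers, 10 of 16 tested genes fell at day 7 against PBS, 2 rose and 4 did not pass (median -0.54). Of all genes 18.9% fell and 16.8% rose. Mfrp, a membrane frizzled-related protein gene, went from 8.39 ± 0.43 to 2.12 ± 0.33 CPM (log2 fold change -1.98 ± 0.19). Prr32 went from 2.29 ± 0.32 to 0.340 ± 0.276 CPM (-2.70 ± 0.42). Its day 7 value rests on few counts, since 3 counts in those libraries equal 0.18 to 0.19 CPM before TMM scaling. Htr2c, a serotonin receptor gene that many neurons also express, was at -0.47 ± 0.05. Against the list, Baiap2l1 rose from 1.92 ± 0.24 to 6.80 ± 1.2 CPM (1.82 ± 0.20) and Epn3 was at 0.26 ± 0.09. At day 1 the list had 4 up, 3 down and 9 not passed, near the shares of all genes (24.9% up and 24.2% down). Those that changed included Baiap2l1 at 1.25 ± 0.21, the collagen gene Col8a1 at 0.48 ± 0.17, Htr2c at -0.21 ± 0.05 and Epn3 at -0.41 ± 0.10.

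The transport lists were mixed. Over all genes 16.8% rose and 18.9% fell at day 7 against PBS, and 24.9% rose and 24.2% fell at day 1. Of 10 ion and water transport genes 3 fell at day 7 against PBS, 3 rose and 4 did not pass (median 0.03). Car12, a membrane carbonic anhydrase, fell by 1.11 ± 0.08 and the bicarbonate transporter gene Slc4a10, which neurons also express, by 0.25 ± 0.04. The chloride cotransporter gene Slc12a2 rose by 0.25 ± 0.05 and the cation channel gene Trpm3 by 0.33 ± 0.05. At day 1, 3 rose, 2 fell and 5 did not pass, with Car14, another carbonic anhydrase, at 0.44 ± 0.11, Slc4a10 at 0.13 ± 0.04, Trpm3 at 0.13 ± 0.05 and Car12 at -0.35 ± 0.07. Of 9 tested solute transporters 3 fell at day 7 against PBS, 2 rose and 4 did not pass (median 0.02). The sulfate transporter gene Slc13a4 was at -0.45 ± 0.10 and the vitamin C transporter gene Slc23a2 at -0.22 ± 0.04, while the monoamine transporter gene Slc29a4 was at 0.56 ± 0.07 and the peptide transporter gene Slc15a2 at 0.28 ± 0.08. At day 1, 3 of the 9 rose, 1 fell and 5 did not pass, led by Slc13a4 at 0.51 ± 0.09 and the lactate transporter gene Slc16a8 at 1.38 ± 0.28, while Slc23a2 was at 0.18 ± 0.04 and Slc29a4 at -0.19 ± 0.08.

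For secreted proteins, 5 of 9 listed genes were tested. At day 7 against PBS 3 of them fell and 2 did not pass (median -0.21), where 18.9% of all genes fell. Bmp7, a bone morphogenetic protein gene, fell by 0.57 ± 0.11, Sostdc1, an inhibitor of such proteins, by 0.49 ± 0.16 and Igfbp2, a carrier of insulin-like growth factors, by 0.21 ± 0.07. At day 1 Wfikkn2, which encodes an inhibitor of growth and differentiation factors, rose from 2.41 ± 1.01 to 6.89 ± 0.65 CPM (1.50 ± 0.21). Igfbp2 was at -0.29 ± 0.07 and 3 genes did not pass, where 24.9% of all genes rose and 24.2% fell. Wfikkn2 was back at 2.22 ± 0.20 CPM at day 7 (log2 fold change against PBS -0.13 ± 0.25).

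**Figure D4:**
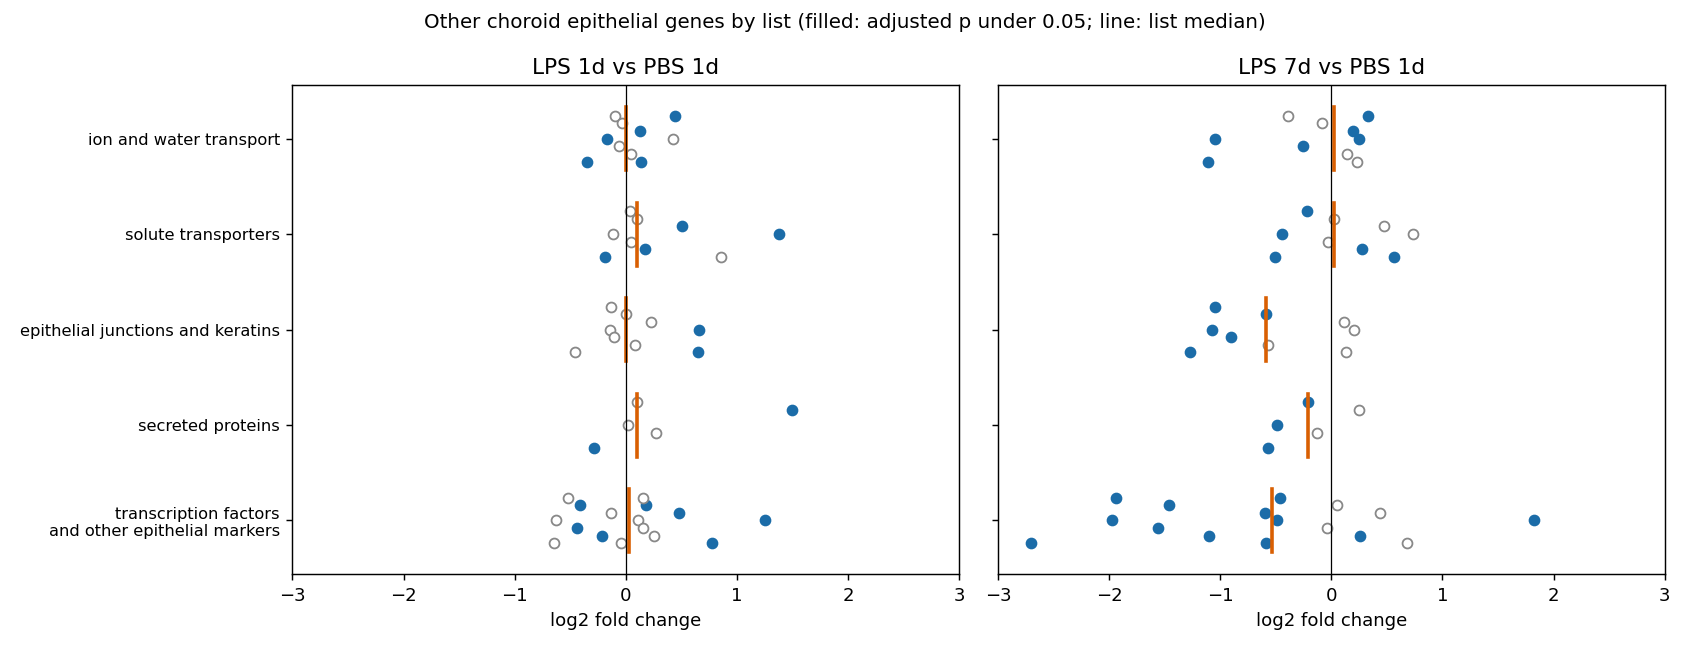
Log2 fold changes (horizontal axes) of 49 other choroid epithelial genes in 5 lists, for LPS at day 1 and at day 7 against PBS; filled points passed the test and vertical lines are list medians. The medians lie between -0.00 and 0.10 at day 1 and between -0.59 and 0.03 at day 7.

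Of 28 listed ligands, receptors and cofactors that work with the 10 proteins 23 were tested, of which 8 rose, 6 fell and 9 did not pass at day 1 against PBS, and 5 rose, 4 fell and 14 did not pass at day 7 against PBS (medians -0.02 and 0.10). These shares are near those of all genes, 24.9% higher and 24.2% lower at day 1 and 16.8% and 18.9% at day 7. Prl, the prolactin gene of the pituitary and ligand of the prolactin receptor, went from 4.59 ± 0.0840 CPM in PBS to 0.718 ± 0.187 CPM at day 1 and 9.90 ± 1.09 CPM at day 7. Stra6, the receptor that takes up retinol from its carrier, went from 8.26 ± 0.93 to 14.1 ± 0.76 and then 6.09 ± 0.27 CPM, with log2 fold changes of 0.77 ± 0.12 at day 1 and -0.44 ± 0.14 at day 7 against PBS. Socs2, a feedback inhibitor of cytokine and growth hormone signalling, followed the same order, with 21.6 ± 1.9, 28.7 ± 1.3 and 17.3 ± 0.36 CPM. Fgfr1, a receptor that pairs with klotho, rose at both times (0.17 ± 0.05 and 0.53 ± 0.05), and Stat5b, a transducer of the prolactin receptor, fell at day 1 (-0.43 ± 0.06) and did not pass at day 7 (0.10 ± 0.06). F2r, the thrombin receptor gene, was at 0.35 ± 0.09 at day 7. The difference between the days was itself tested for Stra6 (-1.20 ± 0.13), Socs2 (-0.73 ± 0.09) and Stat5b (0.52 ± 0.06), each with an edgeR adjusted p from 1.8e-11 to 3.6e-10.

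Genes of neighbouring cells were read beside the members. Ependymal cells line the ventricle and, like the plexus, carry cilia. Of 11 tested ependymal genes 4 fell, 1 rose and 6 did not pass at day 7 against PBS (median log2 fold change -0.42), and 2 fell, 1 rose and 8 did not pass at day 1 (-0.22). Over all genes 18.9% fell and 16.8% rose at day 7, and 24.2% fell and 24.9% rose at day 1. Foxj1, the master factor of motile cilia, was at 17.7 ± 0.97, 11.2 ± 1.5 and 14.3 ± 0.58 CPM. Ak7, Ccdc153 and Hydin also fell at day 7 against PBS (-0.73 ± 0.17, -0.82 ± 0.22 and -0.47 ± 0.14). Rsph1 went the other way and rose at both times, by 0.68 ± 0.15 at day 1 and 0.56 ± 0.15 at day 7. The list summed to 54.7 to 60.2, 42.9 to 52.3 and 43.7 to 48.3 CPM. Of 11 tested genes of choroid stroma and meningeal fibroblasts, 4 rose, none fell and 7 did not pass at day 7 against PBS (median 0.33), where 16.8% of all genes rose. At day 1, 6 of the 11 rose, none fell and 5 did not pass (median 0.42), where 24.9% of all genes rose. Dcn, a matrix proteoglycan gene, had 27.4 ± 1.4, 49.6 ± 0.5 and 40.2 ± 2.6 CPM, and the list summed to 94.1 to 96.2, 151 to 159 and 117 to 124 CPM. Plvap, which marks the leaky capillaries found in the plexus, had 8.22 ± 0.60, 12.7 ± 1.1 and 10.8 ± 1.2 CPM.

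Border macrophage transcripts, over 8 genes, summed to 11.5 to 14.0, 12.5 to 14.1 and 6.13 to 9.13 CPM. Of 5 tested, 1 rose, 1 fell and 3 did not pass at day 1 against PBS (median log2 fold change 0.52). Over all genes 24.9% rose and 24.2% fell in that comparison. At day 7 against PBS 1 fell and 4 did not pass (-0.28), where 18.9% of all genes fell. Cd163, a scavenger receptor gene of border macrophages, fell at both times, with 6.52 ± 0.47, 4.08 ± 0.41 and 2.58 ± 0.86 CPM. Lyve1, a hyaluronan receptor gene, rose at day 1 (1.39 ± 0.40). The pineal gland and the subcommissural organ, which lie nearby at the back of the third ventricle, had sums over 9 genes of 6.23 to 6.68, 10.9 to 14.3 and 5.76 to 8.02 CPM. In that list Sspo, the main product of the subcommissural organ, had 3.86 ± 0.50, 7.82 ± 1.2 and 3.36 ± 0.17 CPM. Gngt1 and Lhx4 had no count in the PBS libraries. Likewise 1 gene of this list had no count in LPS at day 1, and 1 had none in LPS at day 7. Only 4 of the 9 genes passed the filter on low counts. Of 6 genes of the medial habenula 2 fell and 4 did not pass at day 7 against PBS (median -0.34), where 18.9% of all genes fell, and the sums were 75.7 to 80.3, 52.4 to 53.8 and 50.6 to 53.6 CPM. The part of these cell types in the members' values was not tested.

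**Figure D5:**
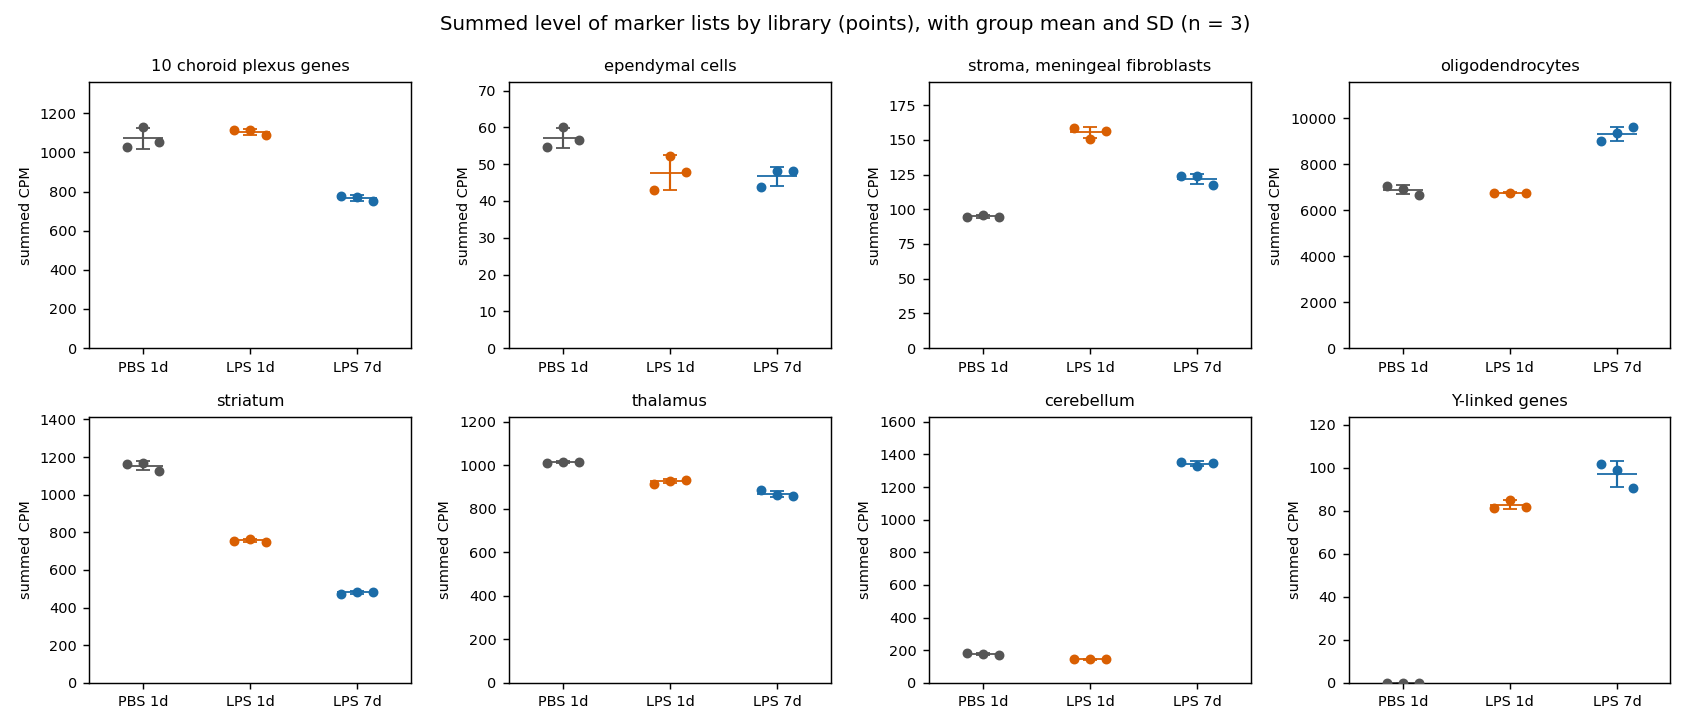
Summed CPM (vertical axes, from 0) of the 10 choroid plexus genes and of 7 marker lists in each library (points), with the group mean and SD (n = 3). The choroid plexus sum is lowest at day 7, where the cerebellar sum is highest (1330 to 1356 CPM) and the striatal sum lowest (474 to 485 CPM).

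Outside all lists, the genes whose levels followed Ttr most closely over the 9 libraries were Tgfb2, Ppp2r2a, Noct, Adgrb3 and Atrnl1. They were ranked among 13866 genes with a mean of at least 1 CPM by the root mean square difference of their centred log2 CPM from that of Ttr, which was 0.04 to 0.05 for these 5. Pearson's r with Ttr over the 9 libraries, which fall into 3 groups and share their scaling, was 0.978, 0.961, 0.958, 0.968 and 0.941. Tgfb2 had 28.4 ± 2.85, 28.9 ± 1.39 and 22.6 ± 0.154 CPM in the 3 groups.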

How the data were processed

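Total RNA of dissected tissue was sequenced from TruSeq libraries, per the labels' protocols. The authors made the gene read counts from aligned reads; the submitters' processing notes name TopHat2, HISAT2, HTSeq and the genome GRCm39, with no version, role or strand setting. The authors also deposited FPKM, which equal counts scaled by gene length and library total (recomputed here, largest relative difference 1.58e-07) and serve only to compare levels between genes. Gene lengths were used as deposited.

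Counts of all 9 libraries were fitted with edgeR 4.0.16 (quasi-likelihood, one mean per group, TMM factors), with the 3 comparisons as two-sided contrasts. Of 21899 genes, 14837 passed filterByExpr, over which the Benjamini-Hochberg adjustment was made. A gene changed when its adjusted p was under 0.05. CPM are counts scaled to TMM-adjusted library totals. The SE is the log2 fold change divided by the root of the F statistic, and intervals at the 95% level use the normal limits of that SE. With 6 residual and 43.4 prior degrees of freedom, the spread of each gene was drawn toward the trend over genes. The method was also run on simulated counts that had the fitted spread and few changed genes. In the data 35.6% to 56.6% of the genes changed, so that run does not vouch for the calls here. Alternatives were DESeq2 1.42.0, upper-quartile factors, library totals, no filter, only the compared groups, a replicate block and leaving out each library. The members and lists were chosen with earlier results of these data known. Other genes are named by rank of p-value within their list, up to 4 per comparison, with up to 2 that went against its majority. One list entry each of the secreted and ependymal lists had no row under the symbol used.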

Additional observations from a re-analysis of the deposited data

How the results depend on the processing

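Over 30 fold changes of the 10 genes and 15 alternative settings, 420 of 450 values kept their direction and their side of the threshold, 20 lost the call, 1 gained it and 9 changed sign. All sign changes were of values that did not pass. For LPS at day 1 against PBS, Ttr was at -0.011 with upper-quartile factors and at -0.0074 with library totals, and leaving out one library gave -0.031 to 0.084 for Ttr and -0.032 to 0.018 for Clic6. For day 7 against PBS, leaving out one library gave -0.16 to 0.17 for Otx2. The count of members that changed at day 1 was 4 here, 2 with DESeq2 and 1 to 4 when one library was left out. At day 7 it was 9 against PBS and 9 against LPS at day 1 (8 to 9 in each with one library left out). The cause of these changes was not tested. The counts of all genes that changed stayed within 1.5 times under each setting run. Deviations from the group means of same-numbered libraries of different groups had correlations of -0.02 to 0.03 across genes. Between the LPS groups these were 0.022 to 0.026, against -0.018 to -0.0067 for libraries with different numbers. Between PBS and the LPS groups not every library correlated best with its own number. The numbers were not taken as pairs. With a replicate block the counts of members that changed were 4, 9 and 9, as without it, and the genes that changed were 7144, 5139 and 8270. At 22 counts in a library, as for Folr1 at day 7, counting error is a large part of the spread.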
